A study of Mus musculus with 9 samples.

Results

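The enzymes described here remove superoxide and peroxides. They are the superoxide dismutases *Sod1* and *Sod2*, catalase (*Cat*), the glutathione peroxidases *Gpx1* and *Gpx4*, and the peroxiredoxins *Prdx1*, *Prdx2*, *Prdx3*, *Prdx5* and *Prdx6*. They were selected by gene symbol as a functional group, with no threshold on their values, and the 10 genes were found among the 52550 genes of the expression table. Plasmacytoid DCs (pDCs), the dendritic cells that release large amounts of type I IFN, were sorted as CD11c intermediate, SiglecH+ and PDCA1+ cells from spleens of C57BL/6 mice. The mice were WT (G/G) or carried 1 (G/A) or 2 (A/A) copies of a knockin allele of *Ncf1*, which encodes a subunit of the superoxide-producing NADPH oxidase NOX2. The mice are described as female and 10 to 12 weeks old, and the cells of every genotype received R848, a TLR7/-8 ligand, at 10 μg/mL. For the library used here, the Y-linked genes given below do not match that sex. The stimulation lasted 12 hours. The allele was made by injection of Cas9 into zygotes and is thus not limited to pDCs. The experiment had 9 samples, 3 per genotype. A single library, A/A replicate 1, gave every value below, while the remaining 8 were not used here. No level below has a replicate error, and no difference between genotypes, or between stimulated and resting cells, was computed.

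Superoxide is formed by NOX2 and, as a by-product, by the respiratory chain. Superoxide dismutases convert it to hydrogen peroxide, and catalase, glutathione peroxidases and peroxiredoxins reduce hydrogen peroxide, with glutathione or thioredoxin as the electron donor in the case of the peroxidases. Each compartment of the cell has its own set of enzymes. *Sod1* acts mainly in the cytosol and *Sod2* in the mitochondrial matrix. *Prdx1*, *Prdx2* and *Prdx6* are mainly cytosolic, *Prdx3* is in the matrix, catalase is in peroxisomes, and *Gpx1*, *Gpx4* and *Prdx5* are found in more than 1 compartment. In pDCs, NOX2 acts at the endosome, where TLR7 and TLR9 meet their ligands.

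The library held 31408298 reads over 17664 of the 52550 genes. Each deposited value was divided by the smallest step in the table to recover whole reads. Levels are given as CPM, the reads of a gene per 1000000 reads of the library. CPM grows with transcript length, so the levels of single genes were compared with each other per length, as CPM per kilobase (RPKM). Read counts and CPM are given for the depth behind each gene, and marker lists are described by their CPM. There were 2 RPKM scales. The exon scale divides by all annotated exon bases of a gene, and the transcript scale divides by the longest protein-coding transcript. Intervals are 95% intervals of the read counts, Wilson intervals for levels and exact binomial intervals for ratios. Since the reads carry no molecular identifiers, PCR copies are counted as well, and these intervals and the limit for undetected genes cover counting error only. A count of 0 allows up to 3 reads, or 0.0955 CPM. Of the pDC markers examined, 11 of 11 had reads, with *Siglech* at 374 CPM and *Bst2* (PDCA1) at 1657 CPM. The Y-linked genes *Ddx3y* and *Eif2s3y* had 102 and 86.1 CPM and *Xist* had 0 reads, although the mice are described as female. The cause was not tested, and the label A/A could not be checked, since the knockin changes the sequence and not the presence of *Ncf1*.

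All 10 genes had reads, against 17664 of all 52550 genes. Their reads were 73066 in total, which was 0.233% of the library. *Prdx1* had 45484 of these reads. The lowest counts were 897 reads for *Prdx3* and 1149 for *Sod2*, the enzymes of the mitochondrial matrix. On the exon scale the order was *Prdx1*, *Gpx4*, *Prdx5*, *Gpx1*, *Sod1*, *Cat*, *Prdx6*, *Prdx3*, *Prdx2* and *Sod2*. All 9 neighbours in this order differed by more than the counting error, the closest being *Prdx5* and *Gpx1*, with a ratio of 1.09 (95% CI, 1.03 to 1.14). The length scale mattered more than the counting error. On the transcript scale *Sod1* moved up from place 5 to place 2, and *Prdx2* and *Cat* could not be told apart at this depth, with a ratio of 1.01 (95% CI, 0.943 to 1.07). Of the 45 pairs of genes, 36 kept their order on the exon scale, on the transcript scale and per kilobase of coding sequence. *Prdx1* was in place 1 on all 3 scales, *Gpx4* in place 2 or 3, and *Sod2* and *Prdx3* in places 8 to 10.

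**Figure D1:**
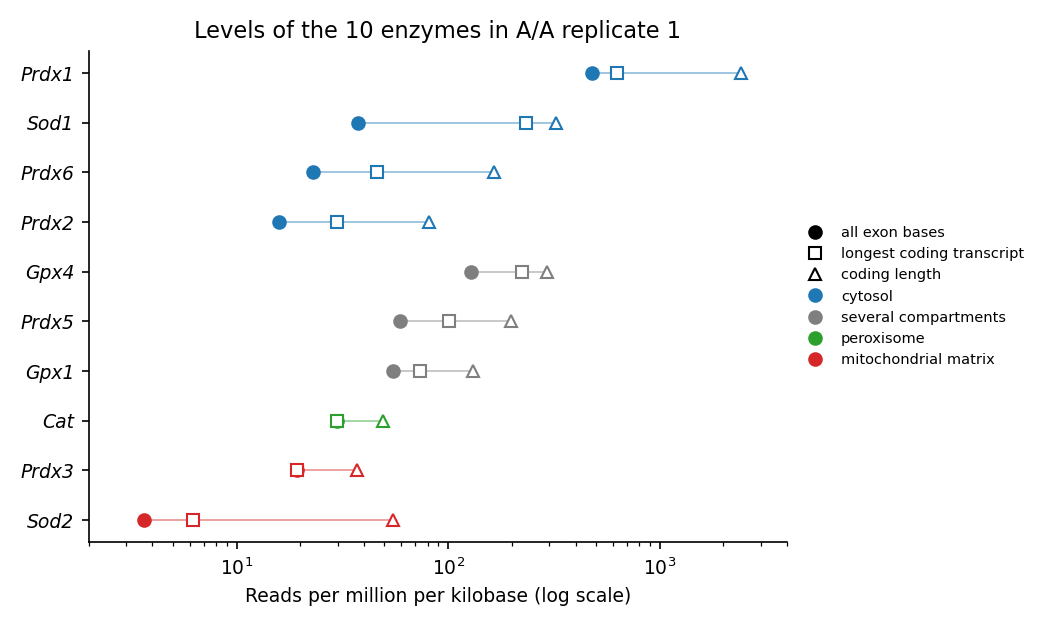
Level of each of the 10 genes in A/A replicate 1, in RPKM on a log axis, with the exon scale as filled circles, the transcript scale as open squares and the coding length as open triangles, coloured by compartment. *Prdx1* lies between 476 and 2426 RPKM, right of every other gene on each scale, while the markers of *Sod1* spread from 37.5 to 322 and those of *Sod2* from 3.66 to 54.9. For *Cat* and *Prdx3* the first 2 markers coincide.

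Among all 17632 genes with reads and an annotated length, the exon-scale median was 1.90 RPKM. Each of the 10 enzyme genes lay above it, at percentiles from 61.1 for *Sod2* to 99.4 for *Prdx1*, with a median percentile of 91.2. *Prdx1* had rank 102 among these genes, *Gpx4* rank 412 and *Prdx5* rank 882. *Sod2* had rank 6864, with all of its 10008 exon bases as the length. Its percentile was 64.2 on the transcript scale and 76.0 in CPM. With only the exon bases inside the deposited gene coordinates its level was 8.53 RPKM, for which no percentile was computed.

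*Prdx1* encodes a cytosolic peroxiredoxin that reduces hydrogen peroxide with electrons from thioredoxin. The gene (ENSMUSG00000028691.12, chromosome 4, 116685544 to 116700822, plus strand of GRCm38) had 1448 CPM (95% CI, 1435 to 1462). This was 476 RPKM (95% CI, 472 to 480) on the exon scale and 631 RPKM on the transcript scale. It held 56.1% of the summed exon-scale level of the 10 genes and 45.3% of the summed transcript-scale level. Its closest relative in structure and place is *Prdx2*, also a cytosolic peroxiredoxin. *Prdx2* (ENSMUSG00000005161.15, chromosome 8, 84969587 to 84974834) had a count of 1516 reads, equal to 48.3 CPM (95% CI, 45.9 to 50.8), 15.8 RPKM on the exon scale and 29.9 RPKM on the transcript scale. *Prdx1* was thus 30.1 times higher than *Prdx2* on the exon scale (95% CI, 28.6 to 31.7) and 21.1 times on the transcript scale. Exons of the opposite-strand genes *Junb* and *Rnaseh2a* cover 11.5% of the exon bases of *Prdx2*. *Junb* had 22669 reads, and the use of strand in the counting is not given in the sources used here, so a part of the reads of *Prdx2* may belong to *Junb*.

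The promoter of *Prdx1* is shown because the gene had the highest level of the 10 and its promoter held a motif that was not found in the windows of the other genes searched. No window of *Prdx6* was searched. RefSeq promoter windows, 250 bases before to 50 bases after a transcription start, were at hand for 9 of the 10 genes, in 12 windows. The antioxidant response element is the sequence bound by NRF2, the transcription factor of the antioxidant response. Its core TGACNNNGC, searched on both strands, occurred in windows of *Prdx1* and *Sod1*, and in 12.4% of all 32851 promoter windows. The stricter form TGACTCAGC, which is contained in the first, occurred among these genes in *Prdx1* only, and in 0.454% of all windows. It lay on the minus strand and began 133 bases before the RefSeq start. In *Sod1* the core began 56 bases before the start. Both promoters also held TATAAA, and a window of *Prdx3* held it on the opposite strand. The motif was found on either strand in 13.6% of all windows. In *Prdx1* it began 29 bases before the RefSeq start, past the end of the bases printed below. The GC box GGGCGG occurred in at least 1 window of each of the 9 genes and in 35.7% of all windows. The bases upstream of the deposited gene start are given here from GRCm38.p6, plus strand, with the antioxidant response element core in capitals (*Prdx1*, chr4:116685449-116685543, and *Sod1*, chr16:90220612-90220741). A match of letters is a description, and binding was not measured.
Prdx1: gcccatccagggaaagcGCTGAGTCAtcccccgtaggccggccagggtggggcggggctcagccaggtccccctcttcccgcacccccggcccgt
Sod1: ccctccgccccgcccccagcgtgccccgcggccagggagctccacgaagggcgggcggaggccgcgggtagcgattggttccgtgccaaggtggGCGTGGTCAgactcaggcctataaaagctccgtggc

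*Sod1*, the copper-zinc dismutase (ENSMUSG00000022982.9, chromosome 16, 90220742 to 90226322), had a count of 4674 reads, equal to 149 CPM (95% CI, 145 to 153). Between the exon and the transcript scale, its level changed more than that of any other member. The annotation used here lists 3970 exon bases for *Sod1*, because of 1 transcript with retained introns, while the only coding transcript has 641 bases in 5 exons. The level was 37.5 RPKM (95% CI, 36.4 to 38.6) on the exon scale and 232 RPKM (95% CI, 226 to 239) on the transcript scale. *Sod2*, the manganese dismutase of the mitochondrial matrix and a known target of NF-κB in inflammation (ENSMUSG00000006818.4, chromosome 17, 13007839 to 13018119), had 36.6 CPM (95% CI, 34.5 to 38.8). This was 3.66 RPKM on the exon scale and 6.24 RPKM on the transcript scale. The deposited coordinates of *Sod1* and *Sod2* differ from those of GENCODE M21, in contrast to the other 8 genes. The exon bases of *Sod2* inside the deposited coordinates number 4290 of 10008, and with this length the level was 8.53 RPKM. *Sod1* was 10.3 times higher than *Sod2* on the exon scale (95% CI, 9.61 to 10.9), 37.2 times on the transcript scale, 5.86 times per coding length and 4.40 times (95% CI, 4.13 to 4.70) with the exon bases inside the deposited coordinates. *Sod1* was the higher one with each of these lengths, but the size of the difference was set by the length used. *Ccs*, the copper chaperone that loads *Sod1*, had 13.6 CPM, or 7.63 RPKM on the exon scale.

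Catalase, which breaks down hydrogen peroxide without an electron donor, lies mainly in peroxisomes. *Cat* (ENSMUSG00000027187.10, chromosome 2, 103453849 to 103485160, minus strand, 13 exons) had 29.8 RPKM (95% CI, 28.6 to 31.0) on both the exon and the transcript scale, since its longest coding transcript covers all of its exon bases. *Prdx1* was 16.0 times higher than *Cat* on the exon scale (95% CI, 15.4 to 16.7) and 21.2 times on the transcript scale. No exon of another gene overlapped *Cat*, and none of its windows of 50 bases occurred in another annotated transcript, so its count is among the least ambiguous of the 10. *Cat* made up 3.51% of the summed exon-scale level.

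*Gpx1* and *Gpx4* encode glutathione peroxidases with selenocysteine in the active site. *Gpx1* reduces soluble peroxides, and *Gpx4* reduces lipid hydroperoxides within membranes and thereby guards against ferroptosis. Selenocysteine is encoded by TGA, which is otherwise a stop codon. In the longest coding transcripts of the 10 genes, an in-frame TGA before the stop codon occurred in *Gpx1* and *Gpx4* only, 1 in each. The codon lies on chromosome 9 at 108339451 to 108339453 in *Gpx1*, as codon 47 of 201. In *Gpx4* it lies on chromosome 10 at 80054737 to 80054739, as codon 33 of 157, 73 of 197 or 129 of 253 in the 3 annotated forms. The coding sequence around it is shown since this codon sets these 2 genes apart from the other 8, with the selenocysteine codon in capitals (51 bases, plus strand of GRCm38, from GENCODE transcripts).
Gpx1: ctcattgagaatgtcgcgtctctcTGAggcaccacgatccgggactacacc
Gpx4: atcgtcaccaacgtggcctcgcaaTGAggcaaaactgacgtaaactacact

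*Gpx4* (ENSMUSG00000075706.10, chromosome 10, 80047166 to 80056439) had a count of 6968 reads, equal to 222 CPM (95% CI, 217 to 227), with 129 RPKM on the exon scale and 223 RPKM on the transcript scale. *Gpx1* (ENSMUSG00000063856.7, chromosome 9, 108338903 to 108340343) had a count of 2480 reads, equal to 79.0 CPM (95% CI, 75.9 to 82.1), with 54.8 RPKM on the exon scale and 73.7 RPKM on the transcript scale. *Gpx4* was 2.35 times higher than *Gpx1* on the exon scale (95% CI, 2.24 to 2.46) and 3.03 times on the transcript scale. *Gpx4* shared more sequence with another gene than any other member: 36.9% of the 150-base windows of its longest coding transcript occurred in the processed pseudogene *Gpx4-ps2*, which had 348 reads. With these reads added, *Gpx4* had 135 RPKM on the exon scale. How reads that match both were counted is not given in the sources used here. *Gpx4* has cytosolic, mitochondrial and nuclear forms, which a value per gene does not separate. Proteins needed to insert selenocysteine had lower exon-scale levels than both peroxidases. *Sephs2*, which makes the selenium donor, had 8.19 RPKM. *Secisbp2*, which binds the selenocysteine element of the mRNA, had 6.77, and *Eefsec*, the elongation factor, had 4.27 RPKM.

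The other peroxiredoxins lay far below *Prdx1*. *Prdx5* (ENSMUSG00000024953.16, chromosome 19, 6906697 to 6910106, minus strand), found in mitochondria, peroxisomes and cytosol, had 3996 reads, or 127 CPM (95% CI, 123 to 131), with 59.5 RPKM on the exon scale and 101 RPKM on the transcript scale. Exons of *Trmt112* on the opposite strand, a gene with 1144 reads, cover 19.1% of the exon bases of *Prdx5*. A part of the reads of *Prdx5* may thus belong to *Trmt112*. Whether this set the exon-scale order of *Prdx5* and *Gpx1* was not tested. *Prdx6* (ENSMUSG00000026701.15, chromosome 1, 161240112 to 161251219, minus strand), a cytosolic enzyme with a single catalytic cysteine that also acts on phospholipid hydroperoxides, had 110 CPM (95% CI, 107 to 114), with 22.9 RPKM on the exon scale and 46.2 RPKM on the transcript scale. *Prdx3* (ENSMUSG00000024997.7, chromosome 19, 60864051 to 60874556, minus strand), the matrix enzyme, had 28.6 CPM (95% CI, 26.8 to 30.5), or 19.3 RPKM on both scales. Together the 5 peroxiredoxins held 70.0% of the summed exon-scale level and 59.4% on the transcript scale. Most of this was *Prdx1*, which alone held 56.1% and 45.3%. The glutathione peroxidases held 21.6% and 21.3%, the superoxide dismutases 4.85% and 17.1%, and catalase 3.51% and 2.14%. Most of the larger share of the dismutases on the transcript scale was *Sod1*. Among the 10 genes, no window of 50 bases was shared between members, so their own similarity does not make identical reads. Processed pseudogenes with identical windows held 78 reads for *Prdx1*, 22 for *Prdx2* and 3 for *Sod1*. In *Sod2*, 7.90% of the 150-base windows over all of its transcripts occurred in other genes, but none of those in its longest coding transcript.

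**Figure D2:**
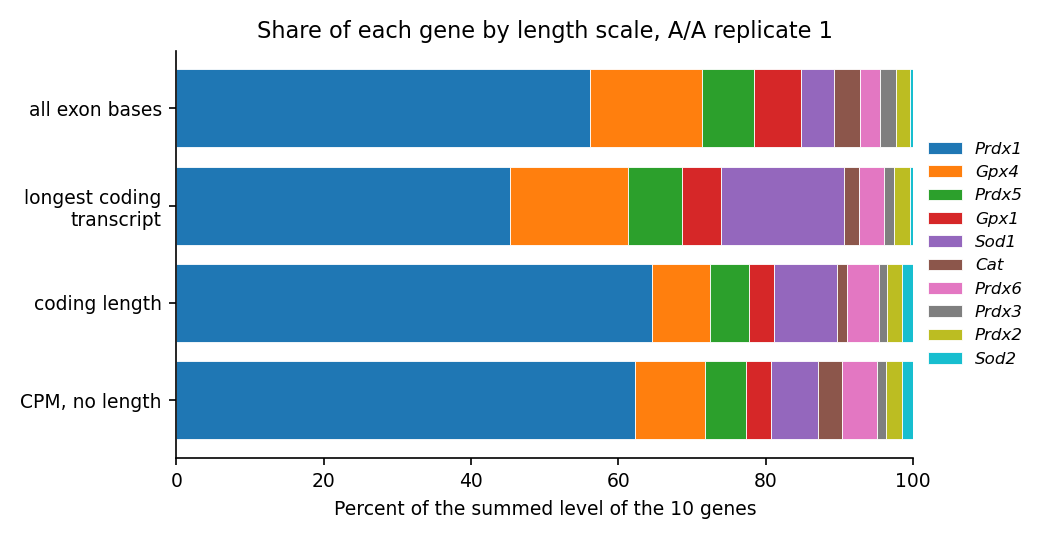
Share of each gene in the summed level of the 10 genes, in percent, with a bar for the exon scale, the transcript scale, the coding length and CPM. *Prdx1* takes between 45.3% and 64.6% of each bar, and *Sod1* takes 4.42% of the exon-scale bar but 16.7% of the transcript-scale bar.

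The genes were also grouped by the compartment of their proteins. These are mRNA levels, and amounts or activities of the enzymes were not examined here. The genes of the 4 mainly cytosolic enzymes held 65.1% of the summed exon-scale level (95% CI, 64.7 to 65.5), most of it *Prdx1*. The 2 matrix enzymes held 2.71% (95% CI, 2.56 to 2.86), catalase in peroxisomes held 3.51%, and the 3 enzymes of several compartments held 28.7%. On the transcript scale these shares were 67.5%, 1.84%, 2.14% and 28.5%. With *Prdx5* counted as mitochondrial, the mitochondrial share was 9.73%, and with *Gpx1* and *Gpx4* counted as cytosolic, the cytosolic share was 86.8%. In each of these counts the cytosolic enzymes were the largest group, but each count includes *Prdx1*. *Sod1*, *Prdx6* and *Prdx2* held 4.42%, 2.70% and 1.87% of the summed exon-scale level, against 28.7% for the 3 enzymes of several compartments. The matrix share uses all exon bases of *Sod2*. The exon bases inside the deposited coordinates, which would raise it, were not applied to the shares.

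The proteins that supply electrons to the peroxiredoxins showed the same order of cytosol over mitochondria. *Txn1*, the cytosolic thioredoxin, had 266 CPM, or 253 RPKM on the exon scale, and *Txn2*, the mitochondrial thioredoxin, had 40.7 CPM, or 9.67 RPKM. *Txnrd1* and *Txnrd2*, the reductases that recharge them, had 18.2 and 1.57 RPKM on the exon scale. The cytosolic gene was higher by 26.2 times for thioredoxin (95% CI, 24.7 to 27.8) and 11.6 times for its reductase (95% CI, 10.1 to 13.4). On the transcript scale the ratios were 12.8 and 14.8. *Prdx1* was 24.6 times higher than *Prdx3* on the exon scale (95% CI, 23.1 to 26.3) and 32.7 times on the transcript scale. *Prdx2*, in contrast, was at 0.819 times the level of *Prdx3* on the exon scale and 1.55 times on the transcript scale, so the order of this pair was not settled. *Idh1* and *Idh2*, the cytosolic and mitochondrial isocitrate dehydrogenases that make NADPH, were closer to each other, at 15.6 and 9.55 RPKM on the exon scale.

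**Figure D3:**
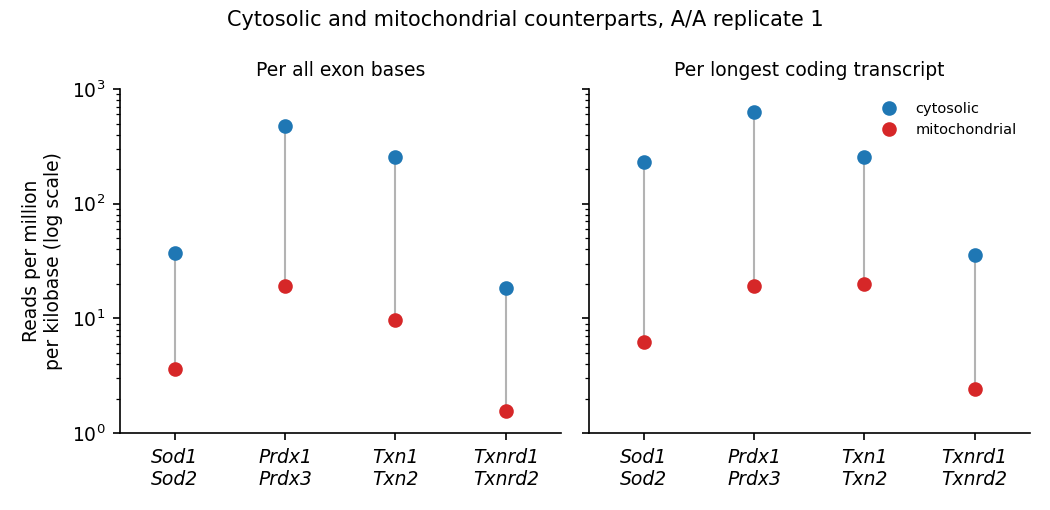
Levels of cytosolic genes (blue) and their mitochondrial counterparts (red) in A/A replicate 1, in RPKM on a log axis, on the exon scale (left) and the transcript scale (right). In the 4 pairs plotted the cytosolic gene is higher on both scales, with a ratio of 10.3 for *Sod1* over *Sod2* on the exon scale. The pairs *Prdx2* and *Prdx3*, at 0.819 on the exon scale, and *Idh1* and *Idh2*, at 1.63, are not plotted.

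The list of electron donors and maintenance proteins held 28 genes, and 28 had reads, against 17664 of all 52550 genes. The median of the 28 was 8.23 RPKM on the exon scale, against 33.6 for the 10 removing enzymes and 1.90 for all genes with reads. In all, 21 of the 28 lay at or above the median of all genes with reads. Besides *Txn1*, the highest were *Atox1*, a copper chaperone, at 191 RPKM, and *Gsr*, the reductase that restores glutathione, at 68.9 RPKM. *G6pdx*, which supplies NADPH to both reductase systems, had 60.7 RPKM. *Txnip*, a binding partner that restrains thioredoxin, had 58.1 RPKM. *Srxn1*, sulfiredoxin, which rescues overoxidized peroxiredoxins, had 30.3 RPKM, while *Sesn2*, a stress-inducible sestrin, had 44.5 RPKM. *Gclc* and *Gclm*, the subunits of the enzyme that starts glutathione synthesis, had 20.0 and 5.79 RPKM. The lowest were *Sesn3* at 0.271, *Txnrd3* at 0.326 and *Me1* at 0.430 RPKM.

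Of the 9 other members of the enzyme families, 6 had 0 reads, a share close to the 66.4% of all 52550 genes at 0. They were *Sod3*, the extracellular dismutase, and *Gpx2*, *Gpx5*, *Gpx6*, *Gpx7* and *Gpx8*. *Prdx6b*, a close copy of *Prdx6*, had 5 reads, or 0.159 CPM (95% CI, 0.0680 to 0.373). *Gpx3*, the secreted glutathione peroxidase, had 142 reads, or 2.49 RPKM on the exon scale, near the 1.90 RPKM median of genes with reads. *Prdx4*, the peroxiredoxin of the endoplasmic reticulum, was the exception, with 1554 reads, or 49.5 CPM (95% CI, 47.1 to 52.0) and 23.5 RPKM on the exon scale. This was close to *Prdx6*, whose exon-scale interval, 22.2 to 23.7, overlapped that of *Prdx4*, 22.4 to 24.7. On the transcript scale *Prdx4* had 49.98 RPKM.

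NOX2, a main enzymatic source of superoxide in phagocytes and DCs, was set beside the removing enzymes. The 5 genes of the complex examined here had a summed exon-scale level of 2723 RPKM, against 847.8 for the 10 removing enzymes. On the transcript scale the sums were 3574 and 1392 RPKM. A sum over the subunits of a complex is not an amount of the complex, and most of the exon-scale sum was *Cyba*. *Cyba*, the small membrane subunit, had 1654 RPKM, 3.48 times *Prdx1* (95% CI, 3.43 to 3.52) on the exon scale and 1.23 times per coding length. *Cybb*, the catalytic subunit, had 454 RPKM, and *Prdx1* was 1.05 times that level on the exon scale (95% CI, 1.04 to 1.06) and 1.14 times on the transcript scale. *Ncf1*, the gene with the knockin allele, had 294 RPKM on the exon scale and 374 on the transcript scale, on both above each removing enzyme except *Prdx1*. *Rac2*, the GTPase of the complex, had 297 RPKM, and *Ncf4*, a cytosolic subunit, had 22.9 RPKM on the exon scale.

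**Figure D4:**
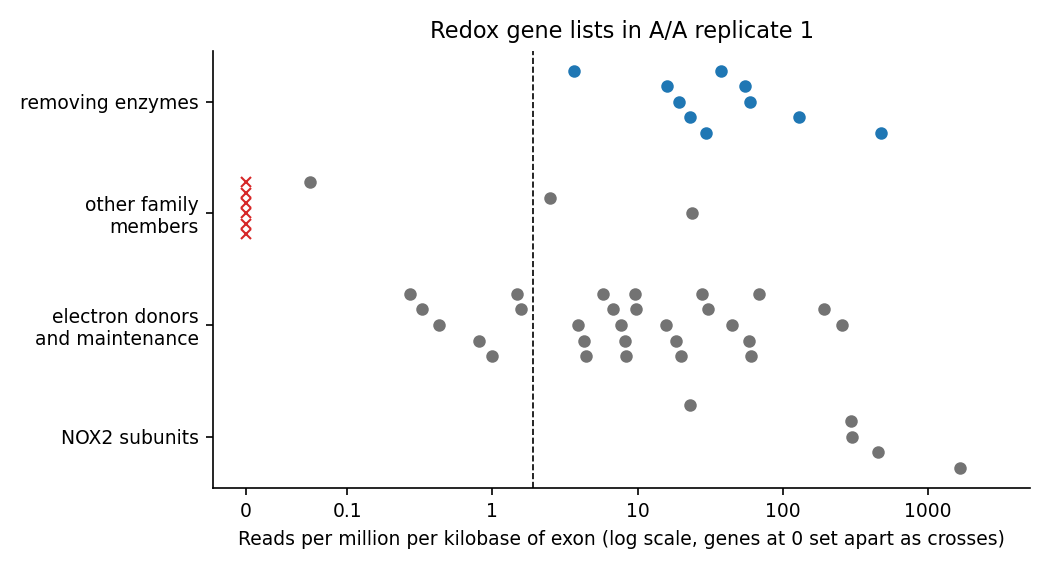
Exon-scale levels of single genes in 4 lists, in RPKM on a log axis, with genes at 0 reads set apart as red crosses and the median of all genes with reads, 1.90, as a dashed line. The 10 removing enzymes (blue) all lie right of the line, from 3.66 to 476, whereas 6 of the 9 other family members are at 0.

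Other cells in the sorted sample could add to these levels, and in bulk RNA fewer cells of a type and less RNA per cell cannot be told apart. Red cells are rich in *Prdx2*, *Cat* and *Gpx1*. Of the 7 erythroid markers examined, 4 had 0 reads, among them *Hbb-bs* and *Hbb-bt*, and the 7 summed to 3.73 CPM, with *Hba-a1* the highest at 2.83 CPM. The T cell markers summed to 0.891 CPM, with 4 of 6 at 0, and the B cell markers to 6.69 CPM, with 3 of 6 at 0. The neutrophil markers summed to 35.6 CPM, with 4 of 8 at 0, *Ly6g* and *Mpo* among them. The highest was *S100a8* at 14.7 CPM, and on the exon scale 4 of the 8 lay at or above the median of all genes with reads. Of all 52550 genes, 66.4% were at 0, so markers at 0 do not by themselves show that a cell type was absent. All 8 macrophage markers had reads and summed to 433 CPM, from 1.72 CPM for *Mertk* to 298 for *Cd68*. The conventional DC markers summed to 1959 CPM, with 1 of 7, *Cd209a*, at 0. Most of this sum was *Ccl22* at 1347 CPM and *Fscn1* at 428 CPM. *Zbtb46* had 106, *Clec9a* 73.9, *Clec10a* 2.36 and *Xcr1* 1.72 CPM. The pDC markers summed to 10293 CPM. Whether conventional DCs, macrophages or neutrophils added to the levels of the 10 genes was not tested.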

How the data were processed

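RNA-Seq libraries of mRNA were sequenced by the authors as 150 bp paired-end reads. The labels' processing notes list HISAT2 and StringTie and the builds mm8 and mm10, without roles or versions. The annotation, the counting tool and the use of strand are not given in the sources used here. The deposited values are a normalized signal per gene without a stated unit. All values above 0 (100%) lay within 0.01 reads of a whole multiple of the smallest, 1.19, so reads were recovered by division. The levels have no replicate, and the comparison of genotypes was not run. Coordinates are those of the deposited table, which for 8 of the 10 genes equal GENCODE M21 (GRCm38). GENCODE M21 gave an exon length for 99.7% of the 52550 genes by identifier without version. Percentiles were taken among genes with reads. Identical windows of 50 and 150 bases were searched in all GENCODE M21 transcripts on both strands. Promoter windows came from RefSeq (GRCm38.p6). Both the division into reads and the ranking of genes were first tested on simulated data, with 3 libraries. Each simulated library was made to hold a gene with a single read. The test thus checked the code and could not show that the smallest deposited value is a single read. The intervals of summed shares are normal approximations of the counting error. Python 3.11.15, numpy 2.4.6, scipy 1.17.1, pandas 2.3.3 and matplotlib 3.10.9 were used. The members, the gene lists and the named genes (all 10 members, the other family members, and genes of the donor and NOX2 lists) were chosen with earlier results of these data known. Alternatives were other lengths, other sets of ranked genes, other compartments for *Gpx1*, *Gpx4* and *Prdx5*, overlapping exons left out and pseudogene reads added. The coding length, the exon bases inside the deposited coordinates, the transcript scale for percentiles and all alternatives for the matrix share were added after seeing the data. Some genes of the NOX2 and marker lists are not reported here.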

Additional observations from a re-analysis of the deposited data

How the results depend on the processing

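No paired analysis was possible because 1 library was analysed here. The cytosolic share of the summed level, 65.1% on the exon scale, was 67.5% on the transcript scale, 79.7% per coding length, 75.5% in CPM, 64.7% with pseudogene reads added and 86.8% with *Gpx1* and *Gpx4* counted as cytosolic. The matrix share of 2.71% was 1.84% on the transcript scale, 2.45% per coding length and 9.73% with *Prdx5* counted as mitochondrial, and moved within its counting interval in CPM and with pseudogene reads added. It was not computed with the exon bases inside the deposited coordinates, which raise the level of *Sod2*. The peroxiredoxin share of 70.0% was 59.4% on the transcript scale, 77.4% per coding length, 75.8% in CPM and 69.5% with pseudogene reads added. The median percentile of the 10 genes, 91.2, was 97.1 over all genes, 89.3 over genes with at least 10 reads, 89.1 in CPM and 92.4 on the transcript scale. The first 2 of these rise and fall by construction. Of the 45 pairs, 39 kept their order on the transcript scale, 39 in CPM and 36 per coding length. Single levels moved most with the length: by over 1.5 times for 10 of the 10 genes per coding length, up to 15.0 times (*Sod2*), for 6 on the transcript scale, up to 6.19 times (*Sod1*), and for 1, *Sod2*, with the deposited coordinates. Adding pseudogene reads moved 1 of the 10 levels beyond the counting error, by less than 1.5 times. Leaving out bases covered by other genes removed length but no reads, so it could only raise levels (2 of 10) and sets no limit on reads gained from *Junb* or *Trmt112*. Depth was not the main limit, since the lowest count was 897 reads.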
